A study of Homo sapiens and Mus musculus with 24 samples.

Results

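Acetylated histone H3 lysine 27 (H3K27ac) was mapped in mouse fetal liver together with hemogen and BRG1, and the regions described here carried the acetyl mark with no called peak of either protein. Peaks of the 2 wild-type H3K27ac libraries were merged where they overlapped by at least 1 bp, on chromosomes 1 to 19 and X, and 25305 merged regions held a peak of each library. Of these, 9210 (36.4%) overlapped no peak in any of the 3 wild-type hemogen lists and no peak in any of the 3 wild-type BRG1 lists, and are called members below. A further 13267 regions (52.4%) overlapped both proteins, 2386 (9.43%) hemogen alone and 442 (1.75%) BRG1 alone. The members were chosen by these same peak calls, so their lack of hemogen and BRG1 is a definition and not a finding. A missing peak means only that the lists used here hold no call there.

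H3K27ac is deposited by the acetyltransferases CBP and p300 on nucleosomes that border active promoters and enhancers. BRG1, the ATPase encoded by Smarca4, drives BAF (SWI/SNF) complexes, which use ATP to slide or evict nucleosomes and open such elements. Hemogen, a nuclear protein made in haematopoietic cells, is best known from red cell development, which at midgestation takes place largely in the liver.

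All samples used were livers of embryos at day 14.5. They comprised 2 libraries each of H3K27ac, of hemogen and of BRG1 from livers labelled WT, and 2 of BRG1 from livers labelled hemogen KO, and each of these 4 groups also had a group list. The hemogen libraries used an HA tag antibody. How the tag reached the protein is not in the labels, and no HA library of untagged embryos was analysed here. Fetal liver also holds hepatocytes, macrophages, endothelium and stroma, and in such bulk chromatin a mark in fewer cells and a weaker mark in every cell cannot be told apart. The labels do not say whether the libraries came from separate animals, so a spread between libraries may be technical. Marker genes of these cell types were not examined, because a mouse annotation was not used here; regions are named by position, with no gene assigned and no sequence printed. Coordinates are 1-based and stand as in the deposited lists, with a genome build that no source used here names.

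H3K27ac peaks numbered 69883 in library 1 and 45548 in library 2. The hemogen lists held 53063 and 42871 peaks and a group list of 78364, and the BRG1 lists 26330 and 21167 and a group list of 37655. Read counts are not part of the lists. Read back from the authors' fold and p-values, the median peak summit stood on 17 fragments in H3K27ac library 1 and 20 in library 2. These heights limit how finely regions near the calling threshold can be ranked.

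Members were weaker and narrower than regions with both proteins, and only slightly weaker and narrower than those with hemogen alone. The authors' fold enrichment, the summit height over the local background, had a median of 3.92 in library 1 and 4.07 in library 2 at members. It was 4.37 and 4.36 at regions with both proteins, 4.01 and 4.16 at those with hemogen alone, and 4.14 and 4.22 over all 25305 regions. The interquartile range of members was 3.43 to 4.57 in library 1, so the fold values of the classes overlapped over most of their range. Recovered summit heights had a median of 19 fragments in library 1 and 20 in library 2 at members, over a background of 3.77 and 3.99. At regions with both proteins these were 23 and 25 fragments, over 4.49 and 4.53. Members had a median width of 455 bp against 635 bp for regions with both proteins and 475 bp for those with hemogen alone. Each library held exactly 1 peak at 8147 members (88.5%), against 82.0% of all regions and 86.4% of those with hemogen alone. Wider than 1 kb were 644 members (6.99%), against 15.0% of all regions and 9.47% of those with hemogen alone. They covered 4.98 Mb, which was 29.3% of the acetylated sequence and less than their 36.4% share of regions. Width itself enters the choice, since a wider region has more room to meet a peak.

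**Figure D1:**
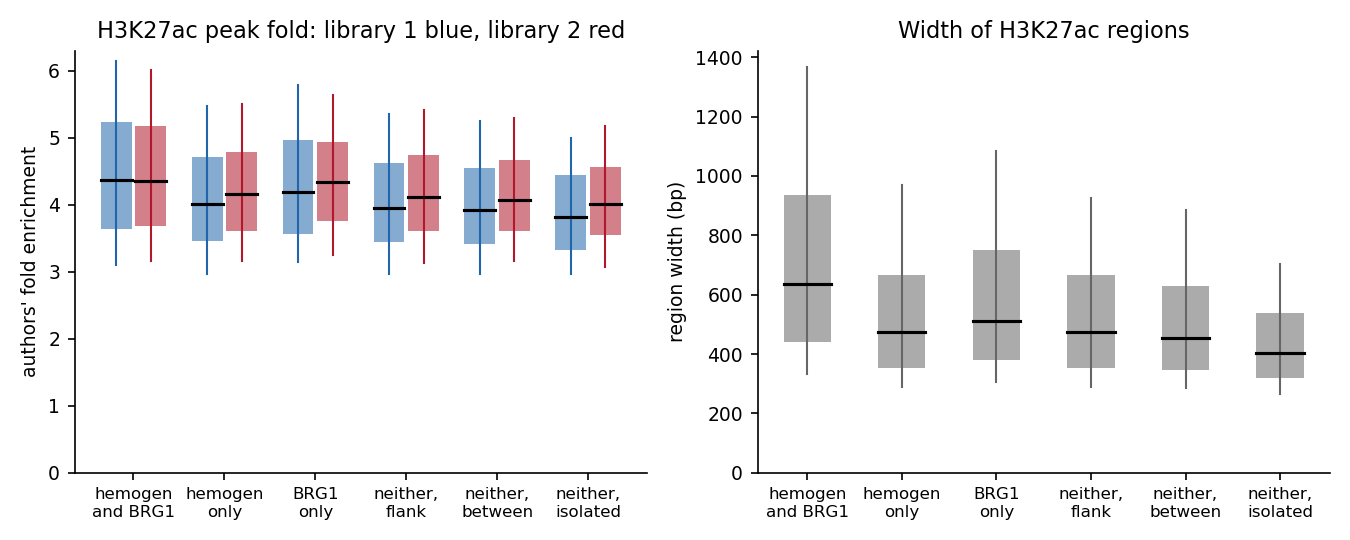
Authors' H3K27ac fold enrichment in each library (left, linear axis) and region width in bp (right) for regions with both proteins, hemogen alone or BRG1 alone, and for members split by the gap to the nearest factor peak (flank, at most 1 kb; between; isolated, over 10 kb). Bars span the interquartile range, black lines are medians and thin lines run from the 10th to the 90th percentile over regions; median width falls from 635 bp with both proteins to 404 bp at isolated members.

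Strength was the mean over both libraries of the percentile of the authors' −log10 p within each list. Its median was 52.3 at members, 56.0 at regions with hemogen alone, 72.2 at regions with both proteins and 62.4 over all regions. By library, the median percentile of members was 60.3 in library 1 and 49.8 in library 2. Regions of every strength included members. They made up 56.6% of the weakest decile of all regions, 40.4% of the fifth and 11.3% of the strongest, where 287 of 2531 regions were members. Regions with both proteins went the other way, from 30.6% to 82.0%. Those with hemogen alone fell as members did, from 289 of 2531 regions in the weakest decile to 133 of 2531 in the strongest. By width, members fell from 52.5% of the narrowest decile to 14.8% of the widest, and regions with hemogen alone from 297 to 140 of 2531. A −log10 q of at least 5 in both libraries was reached by 2106 members (22.9%). The share was 28.2% at regions with hemogen alone, 49.8% at regions with both proteins and 37.8% over all regions. Spearman's rho between the percentiles of the 2 libraries was 0.23 over the 9210 members, 0.27 over regions with hemogen alone, 0.27 over those with BRG1 alone and 0.38 over the 13267 regions with both proteins, as a description across regions that share 2 libraries and a floor on p.

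**Figure D2:**
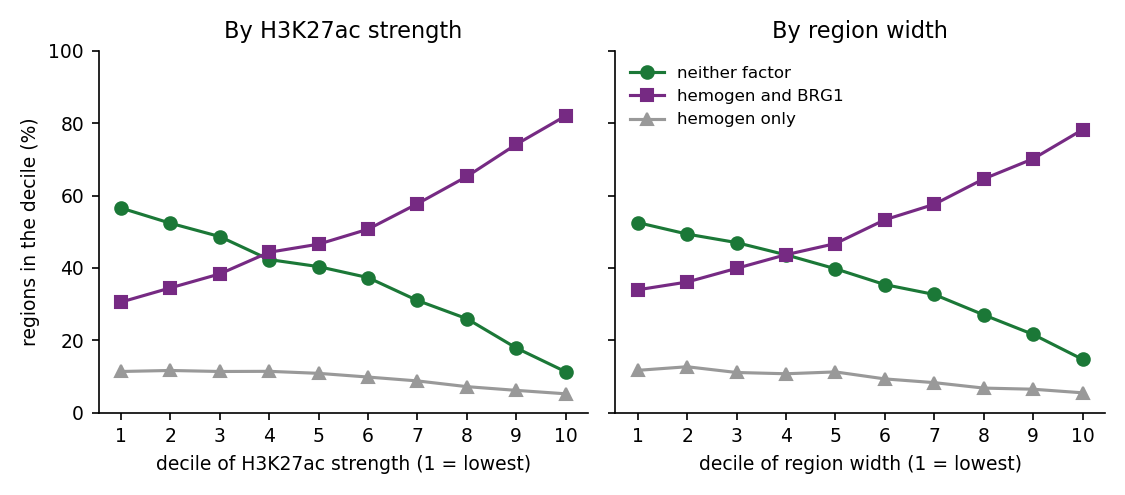
Share of replicated H3K27ac regions (%, linear axis) that held neither protein, both, or hemogen alone, by decile of H3K27ac strength (left) and of region width (right), about 2530 regions a decile. Members fall from 56.6% to 11.3% with strength and from 52.5% to 14.8% with width.

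Most members lay within 10 kb of a hemogen or BRG1 peak without overlapping it. These gaps were not set against a background of other positions. The median gap from a member's edge to the nearest factor peak of any list was 1818 bp, the interquartile range was 696 to 4545 bp, and 1 in 10 members lay beyond 9545 bp. By this gap 3063 members (33.3%) were flanks, within 1 kb of a factor peak. A further 5295 (57.5%) lay between 1 and 10 kb away, and 852 (9.25%) were isolated, over 10 kb away. Hemogen was the nearer protein at 7776 members (84.4%), and its lists were longer. The median gap was 1892 bp to hemogen and 3730 bp to BRG1. Within 1 kb, 1277 members had both proteins, 1625 hemogen with BRG1 farther off, and 161 BRG1 with hemogen farther off. BRG1 was more than 10 kb away at 2096 members (22.8%) and hemogen at 874 (9.49%).

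**Figure D3:**
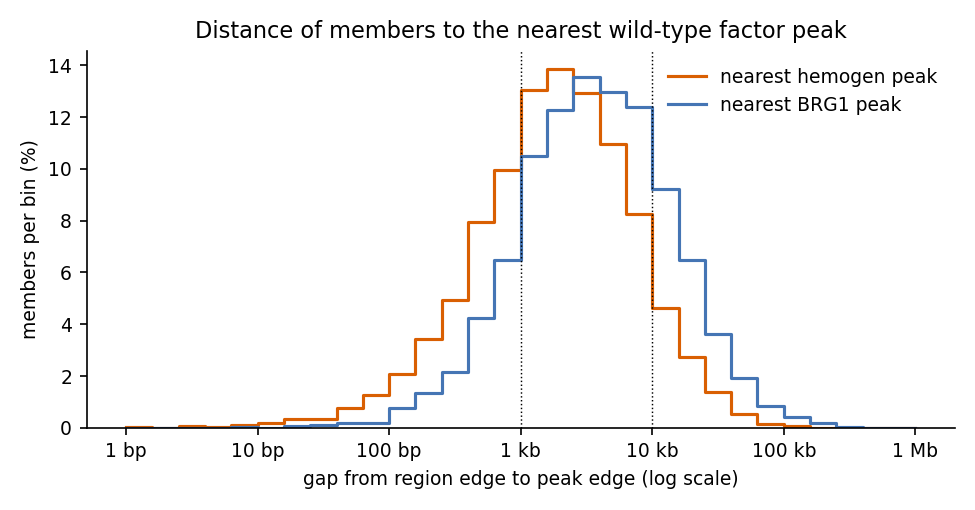
Gap from each of the 9210 members to the nearest wild-type hemogen peak (orange) and BRG1 peak (blue) of any list, in bins on a log axis, as a share of members (%). Dotted lines mark 1 kb and 10 kb; the median is 1892 bp for hemogen and 3730 bp for BRG1.

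The peak nearest to a member held hemogen without BRG1 at 4754 members (51.6%), both at 3852 (41.8%) and BRG1 without hemogen at 604 (6.56%). Over all 80919 merged wild-type factor peaks hemogen without BRG1 made up 70.3% and both 26.4%. The nearest peak was called only in a group list, and in no library, at 3030 members (32.9%), against 39.7% of all factor peaks. It overlapped a hemogen region found in both libraries at 3615 members (39.3%), against 27.6% of all. At 1507 of the 3063 flanks (49.2%) the nearest peak lay on another replicated H3K27ac region, against 16.8% of all factor peaks. The share was much the same at members between 1 and 10 kb away (49.8%), and 37.4% at isolated members. A factor peak nearest to several members was counted for each of them, while the 80919 peaks were counted singly. Peaks nearest to a member also lie near H3K27ac by choice, so these shares are not like for like. At another 470 flanks (15.3%) the nearest peak lay on no such region but had one within 1 kb on its far side. This held at 12.1% of members between 1 and 10 kb away and 10.2% of isolated members. Acetylated regions then stood on both sides of the factor peak.

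H3K27ac strength and width were lower at members farther from the factor peaks, while fold changed little. Median strength was 55.7 at flanks, 51.9 between 1 and 10 kb and 43.4 at isolated members. Median fold was 3.96 and 4.12 at flanks in libraries 1 and 2, and 3.82 and 4.02 at isolated members, a difference far smaller than the spread within either set. In library 2 the median fold showed no steady decline, with 4.07 in each bin from 1 to 10 kb and 4.29 at the 7 members beyond 100 kb. Width fell in the same order, from a median of 475 bp to 455 and 404 bp. The order was not even at short range, since the 330 members within 100 bp of a factor peak had a median strength of 51.9, below the 58.2 of the 1404 members at more than 100 and up to 500 bp. Only 8 isolated members (0.939%) reached the strongest decile of all H3K27ac regions, against 135 flanks (4.41%).

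The edge of the rule was not marked by a step in H3K27ac. The 330 members within 100 bp of a factor peak had median folds of 3.78 and 3.98 in libraries 1 and 2. The 340 regions kept out by an overlap of at most 100 bp had 3.92 and 4.01, with a median strength of 52.3. Among members, 2 touched a factor peak with no base between, on chromosome 7 from 142381998 to 142384618 and on chromosome 12 from 118299027 to 118299505. Their folds were 3.76 and 3.38, and 2.73 and 4.79, in libraries 1 and 2. Kept out by an overlap of 1 bp were 5 regions, the strongest of them on chromosome 11 from 121369143 to 121369411 with folds of 4.38 and 5.19.

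The 8 strongest isolated members are given as the upper end of that set, chosen by strength. The highest, on chromosome 9 from 70956113 to 70957404, had a fold of 9.56 in library 1 and 6.33 in library 2, on summits of 36 and 32 fragments. Its nearest hemogen peak lay 11943 bp away and its nearest BRG1 peak 24534 bp. The next, on chromosome 16 from 32574733 to 32575218, had folds of 5.17 and 8.27, with hemogen 18815 bp away. The third, on chromosome 11 from 31752438 to 31753456, had folds of 4.80 and 4.41 but the tallest library 2 summit of the 8 strongest, 43 fragments over a local background of 8.90. The other 5 lay on chromosomes 8, 1, 13, 9 and 4, with folds between 4.43 and 7.62. Of these 5, the most distant was on chromosome 13 from 57710419 to 57710780, 34511 bp from any factor peak, with folds of 5.69 and 6.79. At 4 of the 8, the nearest factor peak was called in a single list.

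The 8 strongest flanks all lay in the strongest decile of H3K27ac regions. The first, on chromosome 14 from 118806703 to 118807318, had folds of 7.36 and 6.44 on summits of 46 and 49 fragments. Its nearest peak, 430 bp away, was a hemogen peak of 1 list, and BRG1 lay 3537 bp away. The second was also the widest member, 4529 bp on chromosome 8 from 84732624 to 84737152, with folds of 7.06 and 7.25. BRG1 lay 146 bp and hemogen 161 bp beyond its edge, in a peak called in all 6 factor lists. The third, on chromosome 4 from 119022602 to 119023310, had folds of 9.63 and 6.37, with a BRG1 peak of a single list 110 bp away and hemogen 612 bp away. The fourth, on chromosome 13 from 112692214 to 112692548, had 6.26 and 11.5, the highest library 2 fold of any member. Hemogen lay 244 bp from it and BRG1 17900 bp. The other 4, on chromosomes 7, 6, 13 and 11, had folds between 6.01 and 7.66.

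Among the 5 widest members, the second lay on chromosome 12 from 110982963 to 110987382 and was 4420 bp wide, with folds of 4.39 and 5.69 and hemogen 2581 bp away. The others lay on chromosomes 11, 2 and 3, with widths from 3177 to 4153 bp and a nearest factor peak between 500 and 1072 bp away. The 5 members farthest from any factor peak differed between libraries. The farthest, on chromosome 13 from 108852563 to 108852931, lay 299983 bp from hemogen and 535167 bp from BRG1, with folds of 4.60 and 3.57 on summits of 16 and 11 fragments. The next 4 lay between 121955 and 162350 bp away, with strengths from 9.86 to 39.0. Their summits stood on 12 to 14 fragments in library 1, with folds of 2.83 to 3.27, all below the member median. In library 2 they stood on 13 to 18 fragments, with folds of 4.74, 5.07, 4.55 and 3.17, of which the first 3 lay above it.

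Members mostly sat in larger acetylated neighbourhoods that also held the proteins. Joining all replicated H3K27ac regions across the gap commonly allowed when enhancers are stitched into super-enhancers gave 7887 domains. Of the members, 7705 (83.7%) lay in a domain with at least 1 region overlapping hemogen or BRG1, and 1178 domains (14.9%) held members only. Every region with a protein lies in such a mixed or protein-bearing domain by definition, so the 83.7% has no like value over all regions. The share that the density of regions alone would give was not tested. The share of members rose with the size of the domain. It was 22.4% of the 4385 regions that stood alone, 36.4% in domains of 4 to 7 regions and 48.8% in domains of 16 or more. In domains with both kinds and at least 3 regions, members held 50.8% of the outermost positions and 44.2% of the inner ones. Among the 1946 domains with both kinds, the regions with a protein had the higher median strength in 1475 (75.8%), and the median difference, members minus others, was -15.8 percentile points in strength and -160 bp in width. The 3 domains with most members were singled out after their values were seen. On chromosome 2 from 27958534 to 28114005, 75 of 96 regions were members, with a median strength of 74.5 against 94.9 for the others. On chromosome 9 from 64455957 to 64605855, 53 of 69 were members, and on chromosome 11 from 31709431 to 31873316, 51 of 85.

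Fewer members stood apart from both proteins as groups. Domains of members alone numbered 1178, and 982 of these were a single region. Of the 1178, 1111 had no factor peak inside, and they held 1294 members (14.0%). Members joined at the same distance, with no factor peak between them, formed 511 runs of at least 2, which held 1421 members (15.4%). The longest run spanned 33975 bp on chromosome 2 from 127384511 to 127418485, with 11 members. Their median folds were 3.82 and 3.85 in libraries 1 and 2, and the strongest of them reached a strength of 79.7. The nearest factor peak lay 5382 bp beyond this run, but only 1057 bp beyond the fourth longest. The second, on chromosome 1 from 135963845 to 135997603, held 8 members over 33759 bp, and the third, on chromosome 7 from 135827173 to 135860835, held 7 over 33663 bp. Median strength in the 5 longest runs went from 36.6 to 59.5, against 52.3 over all members, and no region in them was above 79.7.

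**Figure D4:**
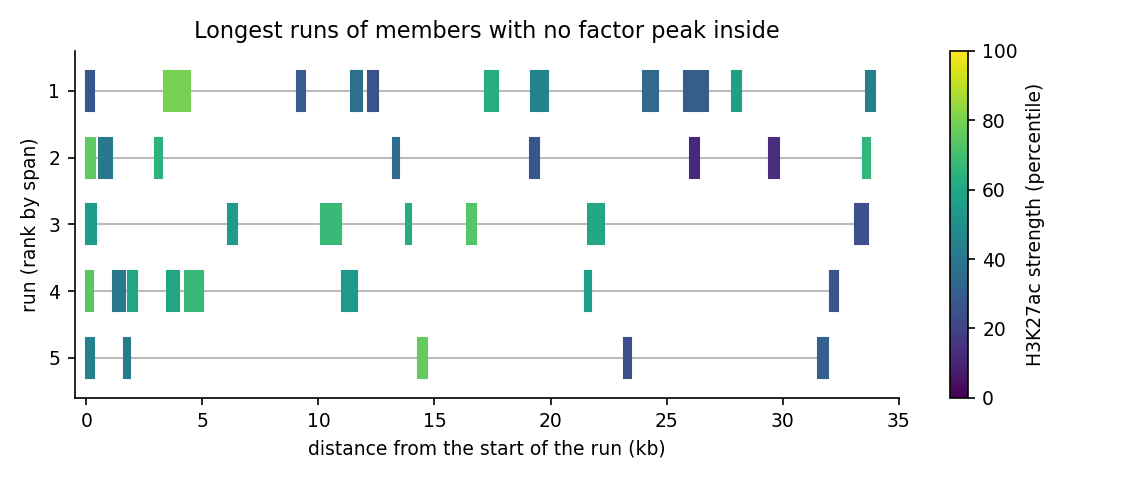
The 5 longest runs of members with no hemogen or BRG1 peak inside, each drawn to scale from its own start (kb). Boxes are members, coloured by H3K27ac strength as a percentile from 0 to 100; spans run from 31940 to 33975 bp and no member is above 79.7.

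By chromosome, members made up between 31.6% and 42.2% of the H3K27ac regions on 18 of the 19 autosomes, the highest on chromosome 6. The exceptions were lower, with 156 of 574 (27.2%) on chromosome 18 and 13 of 107 (12.1%) on chromosome X. Isolated members were most frequent on chromosome 1, where they made up 103 of 601 members (17.1%), and least frequent on chromosome 19, with 14 of 356 (3.93%).

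BRG1 in hemogen knockout liver, which the choice of members did not use, was called at very few of them. A peak of knockout library 1 overlapped 3 members (0.0326%), a peak of library 2 overlapped 11 (0.119%) and a peak of the group list 79 (0.858%). Over all 25305 H3K27ac regions the shares were 9.25% for library 1, 15.0% for library 2 and 28.8% for the group list. At regions with both proteins in wild type they were 17.6%, 28.2% and 53.1%. Counting a peak of any of these lists gave 81 members (0.879%) against 29.7% of all regions, 5.74% of those with hemogen alone and 6.11% of those with BRG1 alone. No member overlapped a peak of both knockout libraries, and neither did any region with hemogen alone or BRG1 alone. Over all regions 1509 (5.96%) did. Of the 81 members, 67 rested on the group list alone and 14 had a peak of either library. Either library was called at 25 of the 137 such regions with hemogen alone and at 4617 of the 7510 over all regions. Members lack BRG1 peaks in wild type by rule, and the knockout lists were shorter, with 3209 and 5602 peaks. Read back from the lists, the lowest background shared by several peaks was 0.562 and 0.631 scaled fragments in the knockout libraries. It was 2.36 and 1.91 in the wild-type BRG1 libraries. The median background at called peaks, in fragments before scaling, was 5.34 and 4.44 in knockout against 4.88 and 5.49 in wild type. Scaled fragments are these times a factor of each library. That factor was 0.562 and 0.675 in knockout and 0.881 and 0.729 in wild type. By these factors the scaled median background was lower in both knockout libraries than in both wild-type ones. The part of list length and background in the counts was not tested. H3K27ac in knockout liver was not analysed here. No test over the 2 libraries of each group was made.

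When only hemogen and BRG1 regions found in both libraries counted, 12684 regions held neither, and 2.98% of these had a knockout BRG1 peak. The low share held at every H3K27ac strength. Among members a knockout BRG1 peak was called at 0.908% in the weakest decile of all regions and at 1.39% in the strongest. At regions with both proteins these were 34.9% and 79.2%, and with hemogen alone 5.54% and 9.77%.

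**Figure D5:**
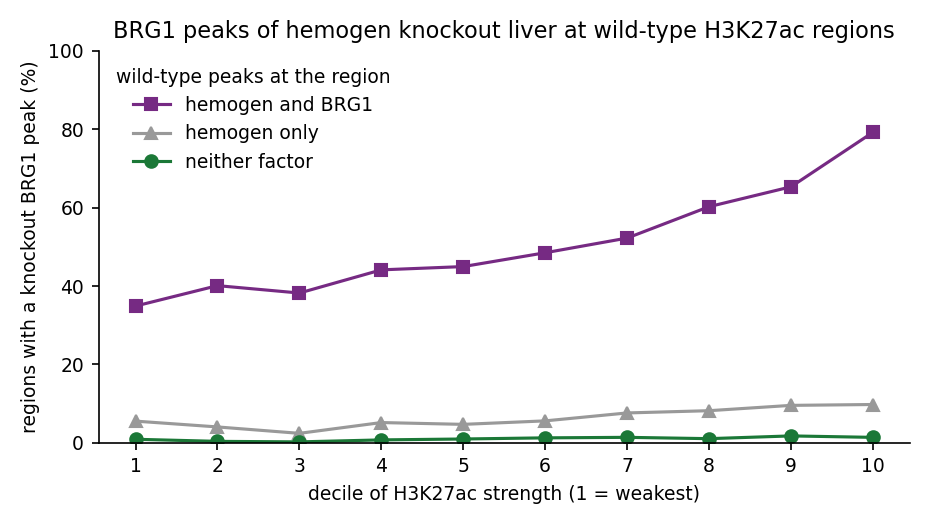
Share of wild-type H3K27ac regions (%, linear axis) that overlapped a BRG1 peak of any hemogen knockout list, by decile of H3K27ac strength and by the wild-type peaks at the region. Members stay between 0.244% and 1.77% while regions with both proteins run from 34.9% to 79.2%.

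The 81 members lay near the wild-type factor peaks. Of them 60 were flanks, 20 lay between 1 and 10 kb and 1 was isolated, which was 1.96%, 0.378% and 0.117% of these sets. Their median gap to a factor peak was 380 bp, against 1841 bp for the other members, and their median width was 616 against 454 bp. The share was 3.94% within 100 bp of a factor peak, close to the 3.53% of regions kept out by an overlap of at most 100 bp. The strongest, on chromosome 9 from 64054756 to 64056452, had H3K27ac folds of 4.87 and 5.81 and a knockout fold of 3.28 in the group list. The second, on chromosome 10 from 80321395 to 80322530, had H3K27ac folds of 5.41 and 5.41. It had a knockout BRG1 fold of 5.13 in library 2 and 4.41 in the group list, with wild-type hemogen 140 bp and BRG1 165 bp away. The other 3 of the 5 strongest, on chromosomes 17, 1 and 11, were called in the group list alone, with folds from 3.47 to 4.69. By the authors' p-value, the knockout peaks at members had a median percentile in their own lists of 41.3 in library 1, from 3 peaks, 32.4 in library 2, from 11, and 25.9 in the group list, from 79. Their median fold was 4.83, 5.00 and 4.06, above the medians of the whole lists, 4.46, 4.55 and 3.95, so that fold and p-value ranked these peaks differently.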

How the data were processed

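The data are ChIP-seq peak calls from livers of WT and of hemogen KO embryos; the labels' extract protocol describes K562 chromatin only. MACS2 2.2.7.1, Picard 2.21.4, SAMtools 1.9 and Bowtie2 2.3.5 appear without role or order per the submitters' processing notes, and no source used here gives the build, control or filters. The authors deposited 12 peak lists without header, 8 of libraries and 4 of groups, in each of which a peak has a fold enrichment (a ratio) and a −log10 p and −log10 q. How group lists combined libraries is not stated. Groups and replicate numbers came from sample titles. Peak names inside the hemogen lists are numbered differently from the lists themselves, so which hemogen library is number 1 rests on the deposited sample assignment; K562 samples were not analysed here.

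Peaks on 19 autosomes and chromosome X were kept, leaving out 0 to 10 per list. Overlap meant 1 bp; gaps run edge to edge. Fragments were recovered by reading p as an upper Poisson tail and fold as height plus 1 over background plus 1. This reading is an assumption about the caller. Heights were whole within 0.02 for 100% of peaks in 8 library lists, with each list's factor chosen to make most heights whole. Simulated heights were recovered, but the simulation was built on the same reading, so it could not test that assumption. Regions were named by rank: the 8 strongest isolated and flank members, the 5 widest and farthest, the 5 strongest with knockout BRG1, the 5 longest runs and those nearest the rule's edge. The members and lists were chosen with earlier results of these data known. Alternatives were overlap of 50%, −log10 q of 5, other lists, trimming, other distances and each library left out. Gene starts and sequence features were not run, since they need a mouse annotation and genome not used here. Scripts ran in Python 3.11.15 with SciPy 1.17.1, pandas 2.3.3, NumPy 2.4.6 and, for plots, Matplotlib 3.10.9.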

Additional observations from a re-analysis of the deposited data

How the results depend on the processing

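The number of members stayed within 1.5 times of 9210 in 5 alternatives that kept all libraries (6763 to 12684). It was 2121 with the H3K27ac lists at a −log10 q of 5 and 120970 of the 167030 peaks of the H3K27ac group list. Leaving out single libraries gave 9517 to 40601, with 40601 when H3K27ac library 2 was dropped and 22351 when library 1 was, since regions then needed a peak of only 1 library. As a share of regions, members went from 36.4% to 22.2% at that −log10 q, 72.4% on the group list, 58.1% without H3K27ac library 2 and 49.1% without library 1. The flank share was 37.8% at an overlap of 50%, 39.4% with H3K27ac and 28.8% with hemogen and BRG1 at a −log10 q of 5, 29.9% with library lists only, 24.8% with replicated hemogen and BRG1 regions, 19.5% on the H3K27ac group list and 34.7% with H3K27ac library 1 trimmed to 45545 peaks. At 500 and 2000 bp in place of 1 kb it was 18.8% and 52.8%, and with 1 library left out 24.8% to 33.9%. In the same order of lists the isolated share was 8.63%, 5.33%, 13.2%, 12.1%, 19.0%, 27.8% and 8.01%. Beyond 5000 and 25000 bp it was 22.7% and 2.11%, and with 1 library left out 9.10% to 20.5%; dropping hemogen library 1 gave 15.5%, H3K27ac library 1 15.4% and H3K27ac library 2 20.5%. The share of members with a knockout BRG1 peak was 1.18% at an overlap of 50%, 1.23% with H3K27ac and 1.62% with hemogen and BRG1 at a −log10 q of 5, 1.39% with library lists only, 2.98% with replicated regions and 0.236% on the group list. It was 0.152% for either knockout library, 0% for both, 0.0760% for knockout peaks reaching a −log10 q of 5, and between 0.0326% and 1.42% for omitted libraries. Dropping hemogen library 1 gave 1.42%, H3K27ac library 2 0.461%, knockout library 1 0.119% and knockout library 2 0.0326%. Median strength was 81.0 with H3K27ac at a −log10 q of 5, 43.2 on the group list and 60.4 with library 1 trimmed, where weak peaks are removed or added by construction, and 40.7 to 53.0 with 1 library left out. For all other moves the cause was not tested.

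No paired analysis was possible because no result comes from a test, and same-numbered libraries share only a number. The lists hold called peaks only, so hemogen, BRG1 or acetylation below the calling threshold was not detectable.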
